A study of Homo sapiens with 4 samples.

Results

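The BCL2 family genes BBC3, PMAIP1, BCL2L11, BID, BIK, BAX, BAK1, BCL2L1, MCL1 and BCL2L2 were followed in HCT116 cells, a human colorectal carcinoma line, 48 h after transfection with control siRNA or with siRNA against KIF26B, a kinesin gene. These 10 genes were looked up by symbol among the 58735 gene identifiers of the series. The list was chosen by the higher BBC3 level after KIF26B siRNA, with the other members placed around it. The difference between the groups is therefore given for all 10 members as a description, with no test. Each group held 2 libraries, numbered replicates 1 and 2. All 4 libraries came from the same cell line in the same medium and received an siRNA. Nothing in the labels says that the replicates were separate cultures, so that the spread between them may be technical. Which of the siRNAs against KIF26B entered which library is not given in the sources used here. The value headers of the libraries labelled KIF26B siRNA carry different knockdown numbers, which may mean different siRNAs. A difference between siRNAs cannot be told apart from one between replicates.

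BCL2 family proteins decide at the mitochondrial outer membrane whether a cell enters intrinsic apoptosis. The effectors BAX and BAK1 form pores that release cytochrome c, anti-apoptotic members such as BCL2L1 (BCL-XL), MCL1 and BCL2L2 (BCL-W) hold them in check, and BH3-only proteins such as BBC3 (PUMA), PMAIP1 (NOXA), BCL2L11 (BIM), BID and BIK block the anti-apoptotic proteins or activate the effectors. Much of the control of this family lies in protein turnover, cleavage and binding, which RNA levels do not show.

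What the members share in sequence is the BH3 domain, by which they bind each other. The coding stretch of its core is shown for all 10 members, since it is the feature that puts BBC3 and its binding partners in 1 family. It was searched for in the translated MANE Select transcripts of GENCODE for GRCh37 as leucine or methionine, any 3 residues, glycine or alanine, then aspartate, and is printed with the 3 codons that follow. Each member held exactly 1 match. Capitals mark the codons of the first residue, of the glycine or alanine, and of the aspartate. Each stretch has 27 bases, lies within a single coding exon, and is written 5′ to 3′ on the coding strand.
BBC3 (chr19:47729839-47729865, minus strand): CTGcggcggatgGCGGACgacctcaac
PMAIP1 (chr18:57569905-57569931, plus strand): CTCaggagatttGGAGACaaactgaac
BCL2L11 (chr2:111907680-111907706, plus strand): TTGcggcgtattGGAGACgagtttaac
BID (chr22:18222184-18222210, minus strand): CTCgcccaggtcGGGGACagcatggac
BIK (chr22:43523722-43523748, plus strand): CTGgcctgcatcGGGGACgagatggac
BAX (chr19:49459044-49459070, plus strand): CTCaagcgcatcGGGGACgaactggac
BAK1 (chr6:33543167-33543193, minus strand): CTCgccatcatcGGGGACgacatcaac
BCL2L1 (chr20:30309728-30309754, minus strand): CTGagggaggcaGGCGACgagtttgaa
MCL1 (chr1:150551344-150551370, minus strand): TTAcgacgggttGGGGATggcgtgcag
BCL2L2 (chr14:23777112-23777138, plus strand): ATGcgggcagctGGAGATgagttcgag

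BBC3 was the only member of the 10 with alanine in place of glycine, and BCL2L2 the only member with methionine at the first position. BCL2L11 shared 19 of the 27 bases with BBC3, the most of the other members, and BCL2L2 shared 13, the fewest. The pattern is loose: 5557 of 18922 MANE Select proteins (29.4%) hold at least 1 match, so that a match alone does not define a BH3 domain. The proteins ranged from 54 residues in PMAIP1 to 350 in MCL1, and the core began at codon 141 of 193 in BBC3.

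The values are fragment counts divided by exon length and by library size (FPKM), which allow levels to be compared between genes as well as between libraries. The libraries had been scaled by 18068934 to 24673739 fragments, and for every member the whole reads behind the FPKM were recovered, from 333 reads of BIK to 7919 reads of MCL1 in a library. Intervals below cover counting error only. The targeted gene was close to the limit of detection. KIF26B had 0.110 and 0.205 FPKM (31 and 73 reads) in control replicates 1 and 2, and 0.140 and 0.0307 FPKM (43 and 8 reads) in the replicates labelled KIF26B siRNA. Replicate 1 labelled KIF26B siRNA lay between both controls and only replicate 2 lay below them, so that every direction below compares libraries by their labels. Mitochondrially encoded genes held 6.98% and 6.99% of the recovered reads in the controls against 9.80% and 7.87% in replicates 1 and 2 labelled KIF26B siRNA, and their part in the results was not tested. All 6 epithelial markers were present, with EPCAM at 77.0 to 98.6 FPKM and a summed level of 1756 to 1771 FPKM in the controls and 1619 to 1699 FPKM in the libraries labelled KIF26B siRNA. Of these, KRT18 (log2 fold change −0.51, adjusted p = 0.242) and KRT8 (−0.43, adjusted p = 0.254) were lower at an unadjusted P below 0.05 in limma, whereas CDH1 (−0.33) and KRT19 (0.14) did not pass. Of 7 blood, endothelial and fibroblast markers found in the files, COL1A1 was at 4.74 to 8.69 FPKM and the others were at 0.301 FPKM or below, with CD3E at 0. The summed level of these 7 was 7.46 to 7.59 FPKM in the controls and 4.94 to 8.76 FPKM in the libraries labelled KIF26B siRNA.

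In the control libraries the members spanned about an order of magnitude. In these bulk libraries, a higher level per cell and a larger share of cells with the RNA cannot be told apart for any gene. MCL1, the short-lived anti-apoptotic member, led with 73.0 ± 0.59 FPKM (SD, n = 2), above 96.9% of the 14523 genes tested. PMAIP1, a BH3-only partner of MCL1, followed with 52.0 ± 0.092 FPKM, then BCL2L1 with 31.2 ± 1.11 and BAX with 25.5 ± 0.40 FPKM (SD, n = 2 each). BIK at 16.9 ± 1.25 and BAK1 at 16.1 ± 1.01 FPKM did not differ beyond their spread, and neither did BBC3 at 7.69 ± 0.89 from BCL2L2 at 7.10 ± 0.38, nor BCL2L2 from BID at 6.78 ± 0.19 FPKM. BCL2L11 was lowest with 6.02 ± 0.27 FPKM (SD, n = 2). BBC3 was thus the seventh of the 10 in control cells, with a level above 59.7% of the genes tested. In the libraries labelled KIF26B siRNA it was the sixth, above 84.7% of them, and its replicates overlapped those of BIK and BAK1 on either side.

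**Figure D1:**
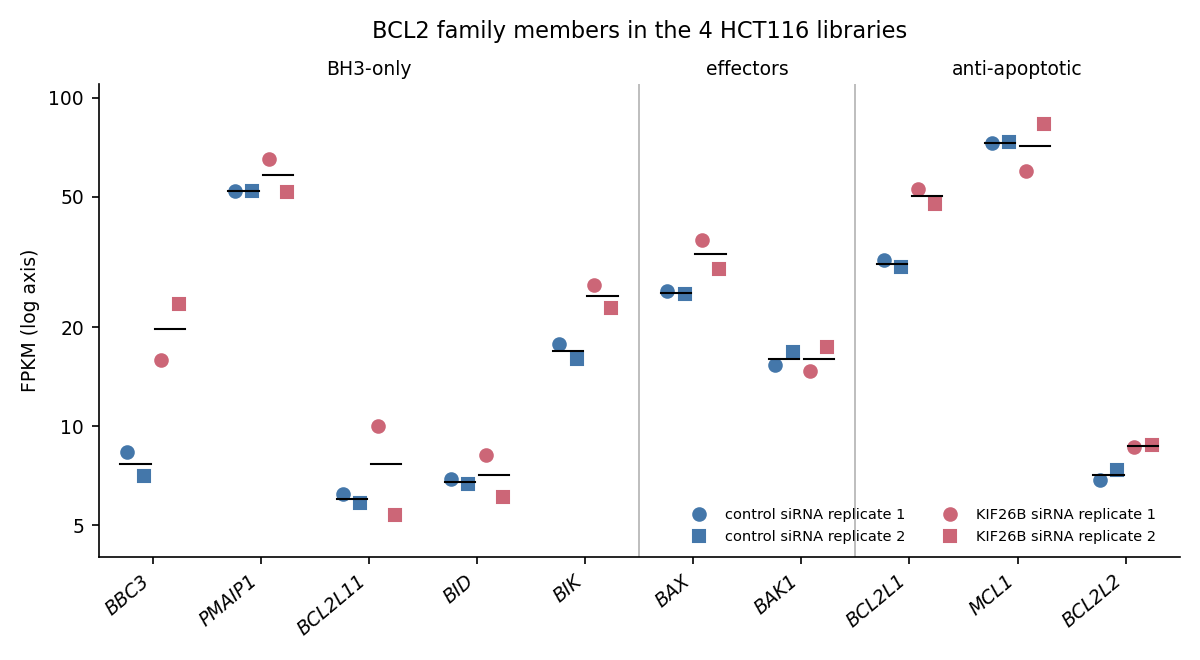
FPKM of the 10 members (log axis) in each library, grouped as BH3-only, effector and anti-apoptotic genes; circles are replicate 1, squares replicate 2, and lines the mean of each pair. The KIF26B siRNA points of BBC3, BIK, BAX, BCL2L1 and BCL2L2 lie above both control points, whereas the other 5 members have 1 point above both control points and 1 below.

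Among the BH3-only members, BBC3 showed the greatest difference of the 10 members. BBC3 (ENSG00000105327, chr19:47724079-47736023 in GRCh37), which encodes PUMA, a BH3-only protein that binds every anti-apoptotic member, had 8.31 and 7.06 FPKM in control replicates 1 and 2. In the libraries labelled KIF26B siRNA it had 15.9 and 23.5 FPKM. The corresponding reads were 519, 554, 1081 and 1353, with exact 95% Poisson intervals of 7.61 to 9.06, 6.48 to 7.67, 14.98 to 16.9 and 22.3 to 24.8 FPKM in the same order. Both libraries labelled KIF26B siRNA were above both controls, and replicate 2 was the higher. The mean was 2.57 times that of the controls, 19.7 ± 5.40 against 7.69 ± 0.89 FPKM (SD, n = 2 each). On the log2(FPKM + 1) scale, where changes of weakly expressed genes come out too small, the difference was 1.23 (standard error 0.23 from limma), of which replicate 1 gave 0.96 and replicate 2 gave 1.502 above the control mean. No other gene that shares exon bases with BBC3 had a read: MIR3191, on the opposite strand, was listed at 0 in all 4 libraries.

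BIK, a BH3-only protein located mainly at the endoplasmic reticulum, had 17.8 and 16.0 FPKM in the controls and 26.9 and 22.9 FPKM in replicates 1 and 2 labelled KIF26B siRNA. The groups did not overlap, the fold of the means was 1.47, and the log2 difference was 0.53 (standard error 0.14). PMAIP1, whose product NOXA binds MCL1, had 52.1 and 52.0 FPKM in the controls and 65.0 and 51.5 FPKM in the libraries labelled KIF26B siRNA. Replicate 1 was therefore above the controls and replicate 2 just below them, with a log2 difference of 0.15 (standard error 0.16). BCL2L11, which encodes BIM, was split more widely, with 6.21 and 5.83 FPKM in the controls against 10.0 and 5.38 FPKM. BID, whose product links death receptors to mitochondria after cleavage by CASP8, had 6.92 and 6.65 FPKM in the controls and 8.15 and 6.10 FPKM in the libraries labelled KIF26B siRNA. For BCL2L11 and BID as well, replicate 1 was the highest of the 4 libraries and replicate 2 the lowest, with log2 differences of 0.26 (standard error 0.30) and 0.05 (standard error 0.17). Of the exon bases of BCL2L11, 10.8% are shared with the opposite-strand transcript MIR4435-2HG, at 2.57 and 2.28 FPKM in the controls and 1.62 and 1.72 FPKM in the libraries labelled KIF26B siRNA.

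BAX and BAK1 are the pore-forming effectors. BAX had 25.7 and 25.2 FPKM in the controls and 36.8 and 30.1 FPKM in the libraries labelled KIF26B siRNA, so that the groups did not overlap, with a fold of the means of 1.31 and a log2 difference of 0.37 (standard error 0.15). BAK1 had 15.3 and 16.8 FPKM in the controls and 14.7 and 17.4 FPKM in the libraries labelled KIF26B siRNA, which lay on either side of the controls. Its log2 difference was −0.01 (standard error 0.14). The ratio of BAX to BAK1 within a library, which no scaling of the library can move, was 1.68 and 1.502 in the controls and 2.51 and 1.73 in replicates 1 and 2 labelled KIF26B siRNA.

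Of the anti-apoptotic members, BCL2L1 showed the second greatest difference of the 10 after BBC3. It had 32.0 and 30.4 FPKM in the controls and 52.7 and 47.6 FPKM in the libraries labelled KIF26B siRNA. The groups did not overlap, and unlike BBC3 the replicates labelled KIF26B siRNA lay close together, at 50.2 ± 3.64 FPKM (SD, n = 2). The fold of the means was 1.61 and the log2 difference 0.67 (standard error 0.12). In FPKM, the gain of BCL2L1 (18.9) was above that of BBC3 (12.04). The FPKM cannot separate the anti-apoptotic long and the pro-apoptotic short splice form of BCL2L1. A share of 41.3% of its annotated exon bases overlaps the opposite-strand RNA ABALON, which had 8.25 and 7.79 FPKM in the controls and 11.4 and 11.5 FPKM in the libraries labelled KIF26B siRNA, and whether the counting used the strand is not stated.

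MCL1, the most abundant member, had 72.6 and 73.4 FPKM in the controls and 59.6 and 83.3 FPKM in replicates 1 and 2 labelled KIF26B siRNA. It was the lowest of the 4 libraries in replicate 1 and the highest in replicate 2, with a log2 difference of −0.05 (standard error 0.20). BCL2L2 had 6.83 and 7.37 FPKM in the controls and 8.64 and 8.76 FPKM in the libraries labelled KIF26B siRNA, a small difference without overlap (log2 0.26, standard error 0.11). It shares 16.8% of its exon bases with the read-through gene BCL2L2-PABPN1, which was at 0.314 to 0.715 FPKM.

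**Figure D2:**
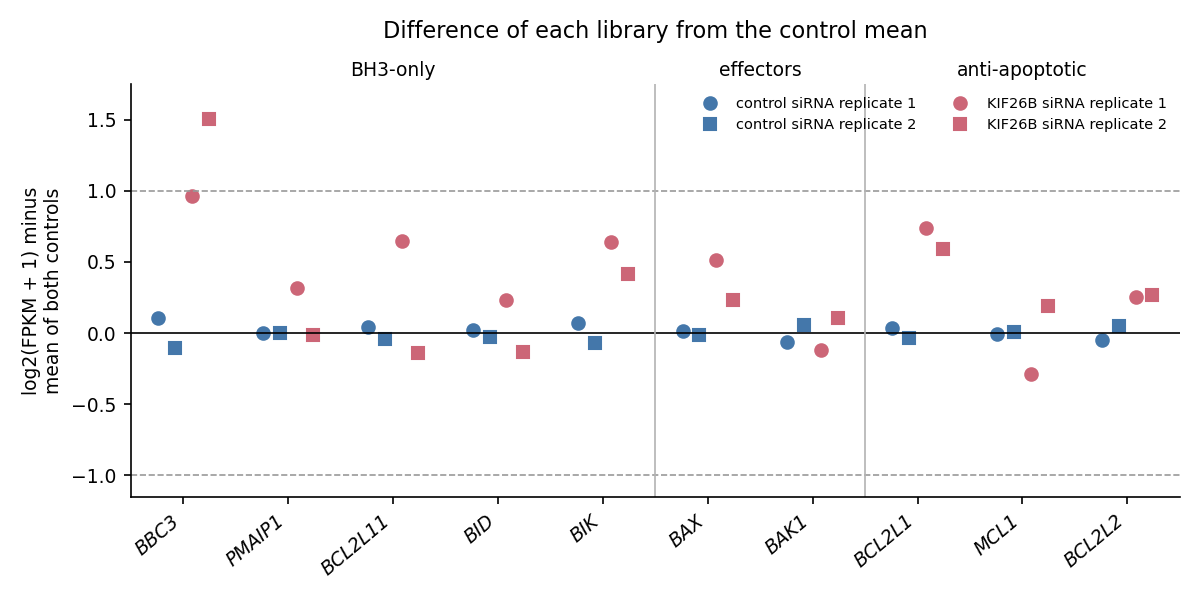
Each library's log2(FPKM + 1) minus the mean of both control libraries, per member; circles are replicate 1, squares replicate 2, and dashed lines mark 1 and −1. BBC3 lies at 0.96 and 1.502 in the KIF26B siRNA replicates, BCL2L1 at 0.74 and 0.59, and the replicates of MCL1 and BAK1 have opposite signs, with replicate 1 below 0 and replicate 2 above it.

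The libraries labelled KIF26B siRNA differed from each other more than the controls did in 9 of the 10 members, against 79.4% of all genes tested. The exception was BCL2L2. In the controls, the ratio of replicate 2 to replicate 1 was 0.849 for BBC3 (exact 95% interval 0.752 to 0.959), and the interval of each other member included 1. In the libraries labelled KIF26B siRNA the interval of the same ratio excluded 1 for every member but BCL2L2. These intervals cover counting error only, and their share over all genes was not computed, so this does not set the members apart. It was above 1 for BBC3 at 1.48 (1.37 to 1.60), MCL1 at 1.40 (1.35 to 1.45) and BAK1 at 1.18 (1.06 to 1.32). PMAIP1, BCL2L11, BID, BIK, BAX and BCL2L1 were lower in replicate 2, from BCL2L11 at 0.537 (0.489 to 0.590) to BCL2L1 at 0.902 (0.859 to 0.948). Between these libraries BBC3 was not ordered like the other BH3-only members. It was higher in replicate 2, in which PMAIP1, BCL2L11, BID and BIK were all lower than in replicate 1.

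Read against the whole table, 5 of the 10 members (BBC3, BIK, BAX, BCL2L1 and BCL2L2) had both libraries labelled KIF26B siRNA above both controls, a pattern of 24.9% of the 14523 genes tested, and 0 members had both below, a pattern of 27.8%. The Methods of the study set an unadjusted P below 0.05 together with a log2 difference of more than 1 as thresholds, which were used here with limma. By these, 0.813% of the genes tested were called higher and 0.606% lower. By P alone, 7.74% were called higher and 8.68% lower. No call is given for a member, because this contrast chose the list. After Benjamini–Hochberg adjustment in limma, 0 genes (0%) were called, with a smallest adjusted p of 0.242, and 0 genes were called with limma-voom on the recovered reads. The median log2 difference of the members was 0.26, beside −0.01 over all genes tested. For the same reason, the counts and the median of the members describe them and support nothing. An exact permutation test of 2 libraries against 2 cannot go below p = 0.333, so that none was made.

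The balance of the pro- and anti-apoptotic sides was read from sums and ratios within each library. These cover the chosen members only and leave out other BH3-only genes. Among those left out, BAD and BMF were lower in both libraries labelled KIF26B siRNA than in both controls. The 5 BH3-only members summed to 91.3 and 87.5 FPKM in the controls and to 125.9 and 109.4 FPKM in replicates 1 and 2 labelled KIF26B siRNA. The 3 anti-apoptotic members summed to 111.4 and 111.2 FPKM in the controls and to 121.0 and 139.7 FPKM in the libraries labelled KIF26B siRNA. Both sums were thus higher in both libraries labelled KIF26B siRNA than in both controls, but replicate 1 gained more on the BH3-only side and replicate 2 more on the anti-apoptotic side. The effectors summed to 41.1 and 41.9 FPKM in the controls and to 51.5 and 47.4 FPKM in the others.

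The ratio of the BH3-only to the anti-apoptotic sum was 0.820 and 0.787 in the controls. It was 1.04 in replicate 1 and 0.783 in replicate 2 labelled KIF26B siRNA, so that replicate 2 lay just below the controls and replicate 1 above them. The difference between the groups in the mean log2 of this ratio was 0.17. It was −0.04 without replicate 1 labelled KIF26B siRNA and 0.37 without replicate 2, and with MCL1 left out of the sum it turned to −0.23. The higher BBC3 level therefore went along with no shift of the summed ratio that both libraries shared. Both did share a difference in composition. BBC3 was chosen for its higher level in these libraries, so its share and its ratios below partly restate that choice. BBC3 made up 9.10% and 8.07% of the BH3-only sum in the controls and 12.6% and 21.5% in replicates 1 and 2 labelled KIF26B siRNA. MCL1 made up 65.1% and 66.0% of the anti-apoptotic sum in the controls and 49.3% and 59.7% in the libraries labelled KIF26B siRNA, where BCL2L1 took more of it. The ratio of BBC3 to MCL1 was 0.115 and 0.0962 in the controls and close in the libraries labelled KIF26B siRNA, at 0.267 and 0.283. The ratio of BBC3 to BCL2L1, its partner that was higher as well, was 0.260 and 0.232 in the controls and 0.302 and 0.495 in the libraries labelled KIF26B siRNA. BAX stood at 0.804 and 0.827 times BCL2L1 in the controls and at 0.698 and 0.632 times in the libraries labelled KIF26B siRNA, and was thus lower relative to BCL2L1 although its own level was higher. Sums of RNA over genes do not give the amounts of the proteins.

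**Figure D3:**
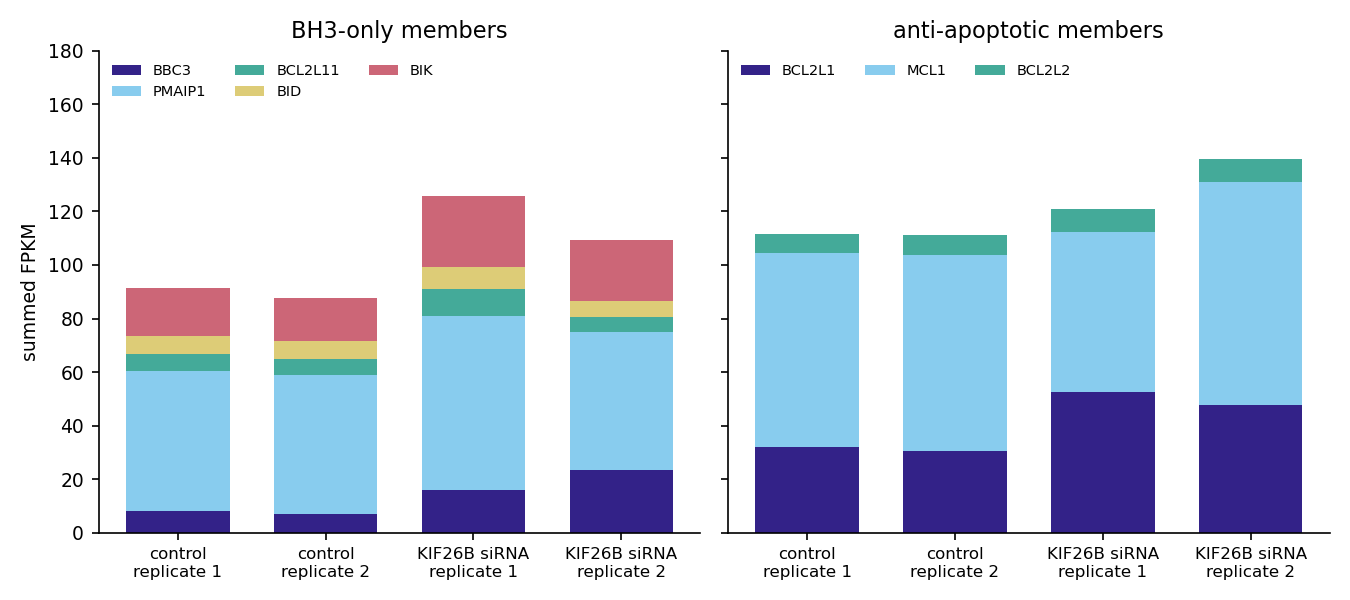
Summed FPKM of the 5 BH3-only members and of the 3 anti-apoptotic members in each library, with each gene as a part of its bar. The BH3-only bar is highest in KIF26B siRNA replicate 1 at 125.9 FPKM and the anti-apoptotic bar in replicate 2 at 139.7 FPKM.

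Other genes of the apoptosis pathway were followed in lists, and no gene of them passed an adjusted p of 0.05 in limma. Of 16 further BCL2 relatives, 10 passed the filter of a mean of at least 1 FPKM, of which 2 were higher and 3 lower at an unadjusted P below 0.05 (7.74% and 8.68% of all genes tested), with a median log2 fold change of −0.19 beside −0.01 over all genes tested. BCL2L12, a proline-rich relative, was past the thresholds of the Methods, with 45.1 and 41.7 FPKM in the controls and 22.5 and 18.3 FPKM in the libraries labelled KIF26B siRNA (log2 fold change −1.06, standard error 0.15, adjusted p = 0.242 from limma). BMF, a BH3-only gene like BBC3, was lower where BBC3 was higher, with 2.95 and 3.25 FPKM in the controls and 1.53 and 1.39 FPKM in the libraries labelled KIF26B siRNA (log2 −0.74, adjusted p = 0.242). BAD, a BH3-only protein that binds BCL2L1, had 12.5 and 12.01 against 9.45 and 9.46 FPKM. BECN1, an autophagy protein with a BH3 domain, had 6.76 and 6.17 against 9.46 and 8.21 FPKM. BCL2L13, a mitophagy receptor, was higher, with 5.42 and 4.86 against 9.33 and 9.54 FPKM (log2 0.77, adjusted p = 0.242 from limma). Some relatives are named here after their values were seen. Anti-apoptotic BCL2 was at 0.127 to 0.390 FPKM and BCL2A1 at 0.152 FPKM or below, both under the filter. BNIP3L, a mitophagy receptor, was split between the replicates labelled KIF26B siRNA, with 14.5 and 58.4 FPKM against 44.9 and 45.9 FPKM in the controls.

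Among the inhibitors of apoptosis, BIRC3 (log2 fold change −0.71, adjusted p = 0.242) and BIRC5 (−0.40, adjusted p = 0.288) were lower at an unadjusted P below 0.05 in limma. The other inhibitors tested, named here for comparison, did not pass: XIAP (−0.076), BIRC2 (−0.007) and BIRC6 (0.098). Of all genes tested, 8.68% were lower at this P. BIRC3, which also acts in NF-κB signaling, had 3.48 and 3.94 against 1.97 and 1.80 FPKM. BIRC5 (survivin), which also serves in mitosis, had 33.6 and 34.8 against 23.8 and 27.7 FPKM.

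In the death receptor list, 14 of 17 genes were tested, with 1 higher and 0 lower at an unadjusted P below 0.05, near the 7.74% higher among all genes tested and beside 8.68% lower, and a median log2 fold change of 0.18. The gene past P was TRADD, an adaptor of the TNF receptor, with 9.45 and 10.2 against 12.6 and 13.9 FPKM. TNFRSF10D, a decoy receptor for TRAIL, had 34.0 and 33.4 against 44.9 and 40.03 FPKM, CASP8 had 3.81 and 3.78 against 5.49 and 4.42 FPKM, and PIDD1, a scaffold for CASP2, had 9.34 and 9.63 against 5.87 and 8.67 FPKM. All 13 mitochondrial partners and regulators of turnover were tested, with 0 higher and 0 lower in limma at an unadjusted P below 0.05 (7.74% and 8.68% over all genes) and a median log2 fold change of −0.03. The smallest P in this list belonged to FBXW7 and USP9X, which promote and oppose the breakdown of MCL1, followed by VDAC1, a channel of the outer membrane, and MTCH2, the receptor for BID there. FBXW7 had 3.02 and 2.90 against 3.96 and 3.74 FPKM, and USP9X had 14.1 and 13.4 against 11.9 and 10.6 FPKM. VDAC1 had 117.4 and 117.1 against 77.7 and 107.3 FPKM, and MTCH2 had 34.9 and 35.9 against 31.6 and 29.6 FPKM.

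**Figure D4:**
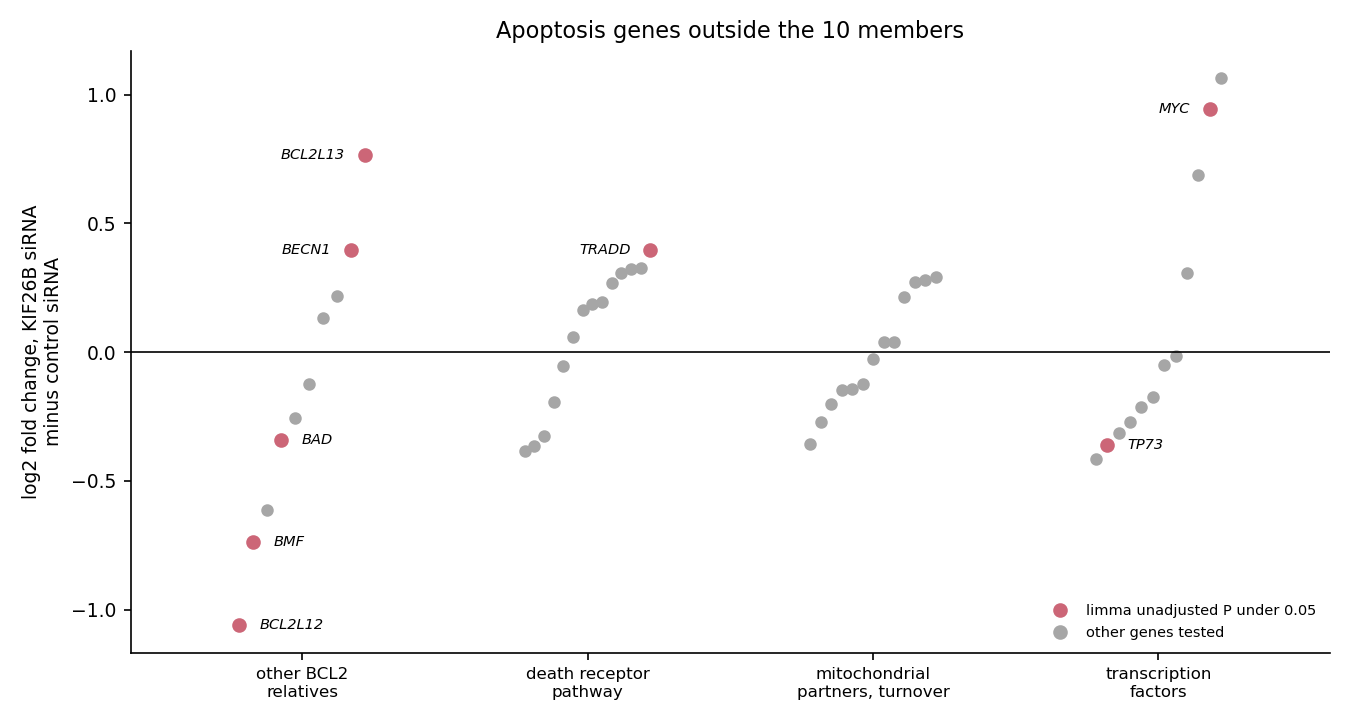
Log2 fold change (KIF26B siRNA minus control siRNA) of each tested gene of 4 lists, with the 10 members left out; red points and names mark an unadjusted P below 0.05 in limma, gray points the other genes. Red points lie on both sides of 0 among the BCL2 relatives, from BCL2L12 at −1.06 to BCL2L13 at 0.77.

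Transcription factors known to act on BH3-only genes gave 1 gene higher and 1 lower of 12 tested at an unadjusted P below 0.05, near the shares of 7.74% and 8.68% over all genes, with a median log2 fold change of −0.11. MYC had 78.5 FPKM in either control and 146.1 and 157.9 FPKM in the libraries labelled KIF26B siRNA (log2 fold change 0.94, standard error 0.11, adjusted p = 0.242 from limma). TP73 had 4.14 and 4.30 against 3.32 and 2.82 FPKM, and FOXO4 had 3.98 and 3.80 against 5.57 and 4.58 FPKM. ATF4, a factor of the integrated stress response, had 69.5 and 72.5 FPKM in the controls and 86.9 and 152.3 FPKM in the libraries labelled KIF26B siRNA. Its partner DDIT3, named after its values were seen, was higher only in replicate 2, with 5.69 and 4.56 against 4.94 and 26.4 FPKM.

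The genes with the pattern nearest to BBC3 were found by the distance over the 4 libraries in log2(FPKM + 1) minus the control mean. The nearest 3, RNU6-681P, RNU6-541P and RNY4P20, are small RNA pseudogenes with at most 9 reads in a library. The next were PIR, an iron-binding nuclear protein, at a distance of 0.15 and TSC22D1, a leucine zipper factor, at 0.20. PIR had 3.95 and 3.28 FPKM in the controls and 8.78 and 12.9 FPKM in the libraries labelled KIF26B siRNA. TSC22D1 had 22.2 and 21.1 against 48.5 and 66.4 FPKM. Like BBC3, both genes were higher in replicate 2 than in replicate 1, an order that the choice by distance to BBC3 favored.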

How the data were processed

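RNA of HCT116 cells was analysed in 4 libraries, 2 per group, with groups and replicate numbers taken from the sample titles. The authors purified poly(A) RNA, sequenced paired-end reads and deposited 1 FPKM value per gene and library, a unit read from the values. The submitters' processing notes list HISAT2 2.0.5, featureCounts 1.5.0-p3 and hg38, whereas the Methods name hg19. The annotation is not given in the sources used here. The deposited values hold no coordinates. Positions and exon overlaps are those of GENCODE v44 lifted to GRCh37, whose exon length equalled the recovered length of 51.0% of genes. A table of gene names gave symbols for 56513 of 58735 identifiers.

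Members and gene lists were chosen with earlier results of these data known. The fit was limma 3.58.1 (R 4.3.3) on log2(FPKM + 1), over 14523 genes whose mean reached 1 FPKM, without covariates, with Benjamini–Hochberg adjustment. It had 2 residual and 2.00 prior degrees of freedom. Besides the 10 members and KIF26B, each list's genes past both thresholds, its up to 4 other genes of smallest P, and the 5 genes nearest to BBC3 were named. Whole reads were recovered from the length at which all 4 values became whole multiples of 1 read, to within 0.002 reads. For genes of 1 exon, at the annotated length, this held in 90.0% to 90.3% of cases. Recovered reads totalled 0.979 and 0.985 times the scaling total in control replicates 1 and 2. The same ratio was 0.988 and 1.04 in KIF26B siRNA replicates 1 and 2. The reason for the excess in KIF26B siRNA replicate 2 was not tested, and recovered reads of some genes may be off there. The limma fit was run on reads simulated with the same spread in both groups. In the data, the libraries labelled KIF26B siRNA differed more than the controls in 79.4% of genes tested. The simulation therefore does not show how the fit performs on these libraries. Alternatives were other filters, pseudocounts and scalings, limma-voom on recovered reads, the replicate block and each library left out. Python 3.11.15, numpy 2.4.6, pandas 2.3.3, scipy 1.17.1, biopython 1.88 and matplotlib 3.10.9 were used. Some genes of the lists are not reported here.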

Additional observations from a re-analysis of the deposited data

How the results depend on the processing

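The log2 difference of BBC3 was 1.23 and kept its direction under the 11 alternatives run, from 1.19 when scaled by total recovered reads (tried only after seeing the data) to 1.34 with limma-voom on recovered reads, and from 0.96 to 1.502 when 1 library was left out. With all 4 libraries kept, no member changed sign under the 7 alternatives. With 1 library left out, BAK1, BCL2L11, BID, MCL1 and PMAIP1 did. The log2 ratio of BH3-only to anti-apoptotic sums was 0.17 without and with the replicate block, 0.03 without BBC3, −0.23 without MCL1, and −0.04 to 0.37 with 1 library left out, negative without KIF26B siRNA replicate 1. The counts of genes called higher and lower, 118 and 88, were 69 and 52 with at least 1 FPKM in every library, 217 and 203 with a pseudocount of 0.1, and 194 and 204 with limma-voom. They ranged from 155 to 333 and from 132 to 230 with 1 library left out, in fits that assume the lone library to vary like the other pair. The higher count was 333 without KIF26B siRNA replicate 1, and the lower count was 139 without control siRNA replicate 1, 194 without KIF26B siRNA replicate 1 and 230 without KIF26B siRNA replicate 2. With the replicate block they were 135 and 98. Same-numbered libraries did not deviate together (correlation −0.00314 across genes). No pairing was seen, but 2 libraries per group, which may differ by siRNA, cannot decide whether the numbers mark pairs. At an adjusted p below 0.05, 0 genes were called under each alternative, except 2254 without KIF26B siRNA replicate 1 (leave-one-out range 0 to 2254). Without adjustment, 1124 genes were higher and 1261 lower at a P below 0.05 in limma. The cause of these moves was not tested. With 2 libraries per group, the spread of each member rests on 1 difference.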
